A study of Mus musculus with 12 samples.

Results

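Endoplasmic reticulum (ER) chaperones, folding enzymes and genes of the unfolded protein response were examined in mouse liver after feeding of norursodeoxycholic acid (norUDCA). The 38 genes were taken by symbol from the 35275 genes of the deposited count table, and they comprised 15 chaperones and disulfide isomerases, 2 ER oxidases, 8 genes of ER-associated degradation, 2 translocon subunits, 4 genes for stress sensors and Xbp1, and 7 genes of the ATF4 branch. All 38 passed the filter on low counts. Livers came from male C57Bl/6J mice, 13 weeks of age, that received a diet with 0.5% norUDCA (6 libraries, numbered 9, 10, 11, 12, 13 and 20) or chow (6 libraries, numbered 2, 3, 7, 8, 16 and 17) for 1 week. All mice were wild type, and both groups had their livers frozen and their total RNA sequenced. NorUDCA is a side-chain-shortened homologue of ursodeoxycholic acid, a hydrophilic bile acid. The question was how the liver transcriptome of mice fed norUDCA differs from that of mice fed chow.

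The ER folds and modifies secreted and membrane proteins, and in liver these include albumin, apolipoproteins and the acute-phase proteins of plasma. When unfolded proteins build up, sensors in the ER membrane (encoded by Ern1, Eif2ak3 and Atf6) signal to the nucleus. ATF6 and spliced XBP1 increase transcription of chaperones and degradation factors, whereas PERK, the Eif2ak3 product, slows translation and favours translation of ATF4, which drives amino acid synthesis genes and Ddit3.

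Many chaperone promoters are known to carry the ER stress response element (ERSE), which ATF6 binds together with NF-Y. The ERSE letters were CCAAT, any 9 bases, then CCACG, and they were searched on both strands of the RefSeq windows that run from 250 bases before to 50 bases after each gene's start (build GRCm38.p6). A window was matched for 33 of the 38 genes, and none was matched for Manf, Hyou1, Derl1, Sec61a1 and Atf6. The letters occurred in 10 of these 33 genes, against 37 of all 27025 genes with a window (0.137%), or 0.119% of all 32851 windows. They were found in 7 of 13 matched chaperones (Hspa5, Hsp90b1, Calr, Canx, Pdia6, Dnajc3 and Creld2), in the oxidase Ero1lb, and in the degradation genes Syvn1 and Derl3. The elements are shown because these genes were among those that fell under norUDCA, as described further on. Capitals mark the element with its spacer, each run reads 5′ to 3′ in the direction of the gene, and an element on the opposite strand reads as CGTGG, 9 bases, ATTGG.
Hspa5, chr2:34772010-34772058, plus strand: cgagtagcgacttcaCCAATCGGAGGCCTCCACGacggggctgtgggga
Hsp90b1 distal, chr10:86705623-86705671, minus strand: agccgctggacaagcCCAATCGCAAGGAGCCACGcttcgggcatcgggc
Hsp90b1 proximal, chr10:86705518-86705566, minus strand: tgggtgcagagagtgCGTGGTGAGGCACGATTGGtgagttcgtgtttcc
Calr, chr8:84847060-84847108, minus strand: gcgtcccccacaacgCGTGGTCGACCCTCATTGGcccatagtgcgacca
Canx, chr11:50325785-50325833, minus strand: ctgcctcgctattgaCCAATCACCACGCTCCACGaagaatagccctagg
Pdia6, chr12:17266476-17266524, plus strand: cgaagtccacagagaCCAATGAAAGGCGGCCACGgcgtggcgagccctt
Dnajc3, chr14:118937812-118937860, plus strand: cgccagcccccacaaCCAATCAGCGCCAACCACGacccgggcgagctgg
Creld2, chr15:88819505-88819553, plus strand: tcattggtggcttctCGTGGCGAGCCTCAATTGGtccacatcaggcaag
Ero1lb, chr13:12565667-12565715, plus strand: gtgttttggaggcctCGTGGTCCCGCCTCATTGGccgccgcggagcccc
Syvn1, chr19:6046517-6046565, plus strand: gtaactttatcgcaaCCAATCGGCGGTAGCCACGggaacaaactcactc
Derl3, chr10:75893227-75893275, plus strand: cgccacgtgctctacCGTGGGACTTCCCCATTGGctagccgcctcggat

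Of the 11 elements, the one nearest to a start was that of Syvn1, 44 to 26 bases before it, and the farthest was the distal one of Hsp90b1, 212 to 194 bases before it. The related ERSE-II (ATTGG, any 1 base, CCACG) was found in Herpud1 and, past the start site, in Dnajb11, against 0.0444% of all genes with a window. The UPRE letters TGACGTGG, which spliced XBP1 and ATF6 are known to bind, occurred in none of the 33 matched genes. Of all genes with a window, 0.714% had them. The CARE letters TGATGNAA are the composite element that ATF4 binds with C/EBP factors. They occurred in Herpud1, Asns and Chac1 and, past the start site, in Trib3, against 4.51% of all genes with a window. The Herpud1 and Asns elements are shown because these genes moved apart from most of their groups.
Herpud1 ERSE-II, chr8:94386362-94386402, plus strand: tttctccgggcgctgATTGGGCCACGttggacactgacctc
Herpud1 CARE, chr8:94386302-94386339, plus strand: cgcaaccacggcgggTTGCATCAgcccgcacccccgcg
Asns CARE, chr6:7693210-7693247, minus strand: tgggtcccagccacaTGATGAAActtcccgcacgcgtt

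**Figure D1:**
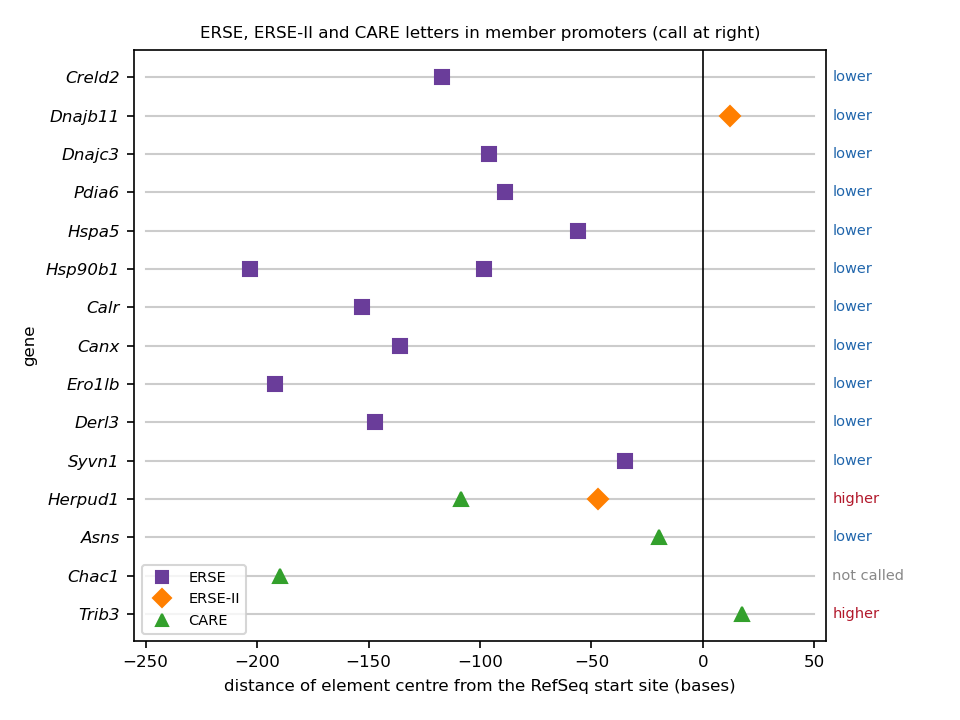
Positions of ERSE, ERSE-II and CARE letters in the matched promoter windows of 15 genes, as the distance of the element's centre from the RefSeq start site in bases (x axis), with genes in rows and the call of each gene under norUDCA against chow at the right. The 10 genes with an ERSE were called lower, as were Dnajb11 and Asns without one, and the Dnajb11 and Trib3 elements lay after the start.

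These letter matches are a description of the windows and were not tested as binding sites. Among all genes with a RefSeq window, 37 had the ERSE letters. Beside the 10 genes above, 27 others had them, of which 20 were not found among the genes tested. Whether these had low counts or no match in the count table was not recorded. The remaining 7 had log2 fold changes between -0.53 and 0.30, and their adjusted p values in edgeR's quasi-likelihood test ran from 0.0875 to 0.959. Of the 23 matched genes of the present group without the letters, 8 were also called lower (Pdia3, P4hb, Dnajb11, Sdf2l1, Edem1, Edem2, Xbp1 and Asns), 2 were higher and 13 were not called. Among the 10 with the letters, the calls of Syvn1 and Canx were lost in 13 and 2 of 19 alternative analyses.

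Libraries held 14065837 to 15342922 counts under norUDCA and 12209706 to 13715026 counts on chow, so every norUDCA library was deeper. Abundances are given as CPM, the counts of a gene scaled to the size of its library with TMM factors, and a gene was called at an adjusted p below 0.05 over the 12378 genes tested. Among all genes tested, 15.3% were called, 6.73% higher and 8.62% lower under norUDCA, and the median log2 fold change was near 0 (-0.001). The labels do not say that libraries come from separate animals, so the p values measure the spread between libraries. The hepatocyte list was abundant in every library, with a summed level of 66496 to 80588 CPM under norUDCA and 65276 to 85935 CPM on chow. Alb carried most of this sum, with a mean of 48907 CPM under norUDCA and 44283 CPM on chow. Its log2 fold change was positive (0.14, not called), and that of the other 7 genes was negative. In bulk liver, fewer cells of a type and less RNA per cell cannot be told apart.

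Some other lists moved with the diet and others did not, and their part in the results was not tested. Of 7 sinusoidal endothelium genes 0 were called, with a sum of 126 to 184 CPM under norUDCA and 124 to 205 CPM on chow. Of 6 T and NK cell genes 0 passed the filter on low counts. The summed level of 10 acute-phase genes was 4463 to 8851 CPM under norUDCA and 9604 to 55969 CPM on chow, with 7 of the 10 lower. The sum of 7 Kupffer cell and macrophage genes was 73.3 to 163 CPM under norUDCA and 123 to 302 CPM on chow (4 of 7 lower), and none of them was at 0. The sum of 7 neutrophil genes was 0.977 to 3.64 CPM under norUDCA and 1.84 to 12.4 CPM on chow (2 tested, both lower), with Ly6g at 1 count over all 12 libraries. Cholangiocyte genes summed to at most 41.5 CPM under norUDCA and at most 103 CPM on chow, with overlap (2 of 5 tested lower, Sox9 and Spp1). Spp1 carried most of the cholangiocyte sum, with a mean of 28.5 CPM under norUDCA and 53.6 CPM on chow. Krt19, Epcam and Krt7 were not called (log2 fold changes 0.31, 0.16 and -0.09). Of 8 stellate cell genes, 2 were higher (Reln and Col1a1) and 6 were not called. Of 8 hepatocyte genes, 4 were lower. The sum of 10 genes of the feeding state was 6994 to 8681 CPM under norUDCA and 8886 to 10611 CPM on chow, with Igfbp1 lower. Plasma and B cell genes, from cells rich in ER, summed to 218 to 317 CPM under norUDCA and 231 to 368 CPM on chow, and the 4 tested had unadjusted p of 0.122 to 0.951 (Ighm, Igkc, Igj and Sdc1). Sdc1 carried most of this sum, and the other 7 genes together gave 6.12 to 13.5 CPM under norUDCA and 9.36 to 27.5 CPM on chow. Of 10 genes of pancreatic acinar cells, which are also rich in ER, only Cela1 was tested, and it was lower (14.3 ± 1.74 CPM under norUDCA and 33.7 ± 4.97 CPM on chow, SD, n = 6 each). Cpa1 and Amy2a5 had 0 counts in all libraries, and the defining gene Prss2 had 1. Of 10 tested clock genes 3 were higher and 1 lower, and the list summed to 388 to 613 CPM under norUDCA and 343 to 471 CPM on chow.

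Under norUDCA, 22 of the 38 genes fell and 2 rose, against the 8.62% of all genes that were lower and the 6.73% that were higher. The genes that rose were Herpud1 and Trib3. The median log2 fold change of the 38 genes was -0.39, and 32 of them had a negative value. In 17 genes the 6 norUDCA and the 6 chow libraries did not overlap, as in 7.66% of all genes tested, 16 with norUDCA below chow and 1 with norUDCA above chow, where all genes tested gave 4.07% below and 3.59% above. The fall was most frequent among the chaperones, with 13 of 15 lower and a median of -0.72. In the ATF4 branch 1 of 7 genes was lower and 1 was higher, with a median of 0.05. The remaining groups lay between these, with 4 of 8 degradation genes, 2 of 4 sensor genes, 1 of 2 oxidases and 1 of 2 translocon subunits lower.

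**Figure D2:**
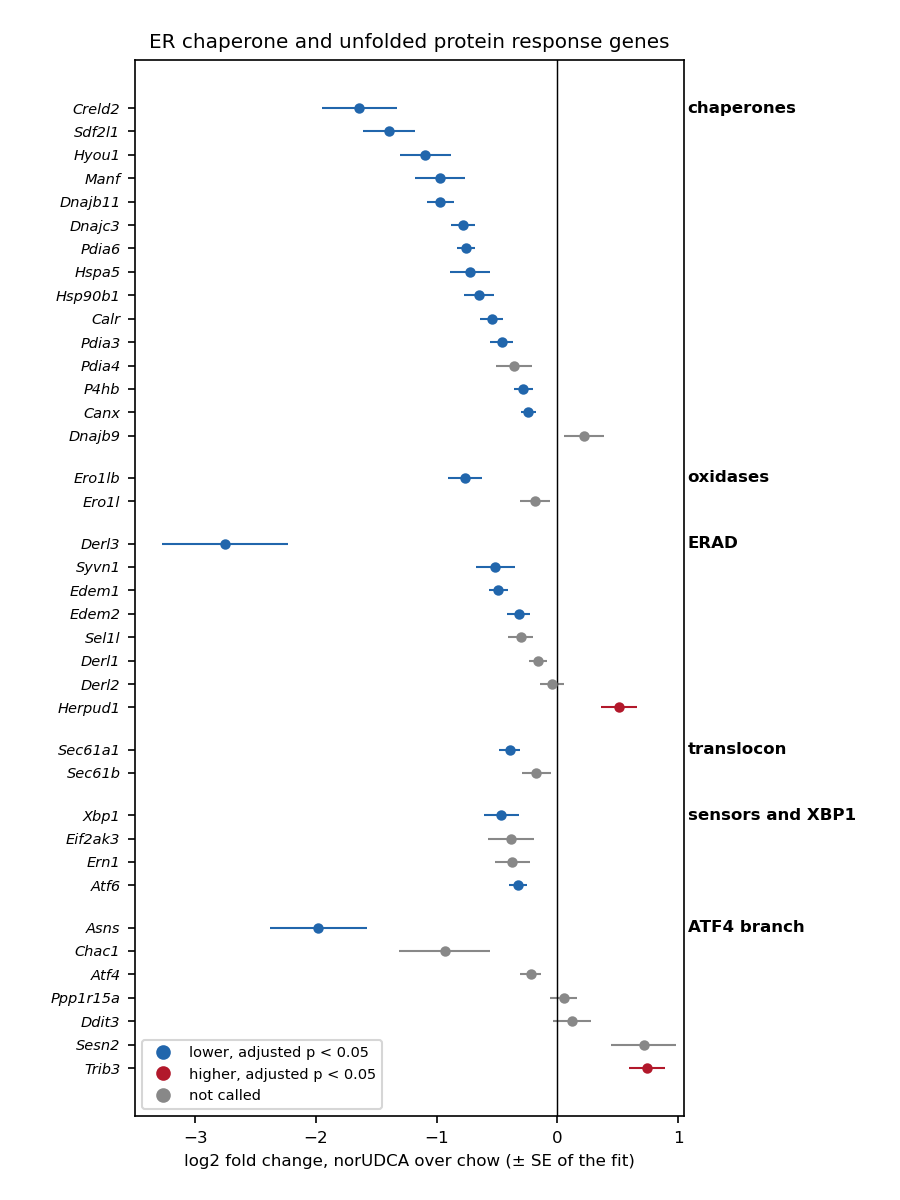
Log2 fold change of norUDCA over chow for each of the 38 genes (x axis, points with ± SE of the edgeR fit, n = 6 libraries per diet), grouped by role and coloured by call. The 13 chaperones called lower lie left of 0, whereas ATF4-branch genes lie on both sides, with Asns at -1.98 and Trib3 at 0.74.

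Hspa5 encodes BiP, the Hsp70 chaperone of the ER lumen that also holds the sensors inactive. Its level was 394, 515, 522, 523, 579 and 676 CPM in norUDCA libraries 11, 12, 20, 10, 9 and 13, and 686, 692, 732, 880, 972 and 1337 CPM in chow libraries 8, 2, 3, 17, 7 and 16. The highest norUDCA library stayed just below the lowest chow library, and chow 16 stood above the other chow libraries. The log2 fold change was -0.72 ± 0.17 (SE), a 1.65-fold lower level (adjusted p = 0.00912).

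Hsp90b1, which encodes the Hsp90 of the ER, GRP94, had 307 to 375 CPM (median 333) under norUDCA and 402 to 675 CPM (median 505) on chow. The groups did not overlap, and the log2 fold change was -0.65 ± 0.12 (adjusted p = 0.00258). Hyou1, the nucleotide exchange factor of BiP, had 90.4 to 179 CPM (median 128) under norUDCA and 191 to 437 CPM (median 230) on chow. Again no norUDCA library reached the chow range (log2 fold change -1.09 ± 0.21, adjusted p = 0.00305). Both genes were highest in chow 7 or chow 16 and lowest in norUDCA 11.

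Among the J-domain cochaperones of BiP, Dnajb11 and Dnajc3 fell and Dnajb9 was not called. Dnajb11 had 53.0 to 72.2 CPM (median 57.1) under norUDCA and 91.4 to 149 CPM (median 112) on chow, with no overlap and a 1.96-fold lower level (log2 fold change -0.97 ± 0.11, adjusted p = 7.33e-05). Dnajc3, also known as an inhibitor of PERK, had 173 to 215 CPM (median 182) under norUDCA and 250 to 385 CPM (median 324) on chow. These ranges were again separate (log2 fold change -0.78 ± 0.10, adjusted p = 0.00017). Dnajb9, a known target of spliced XBP1 and a repressor of IRE1, had 35.4 to 59.9 CPM (median 44.2) under norUDCA and 28.0 to 51.3 CPM (median 35.5) on chow. It was the only chaperone with a positive log2 fold change (0.22 ± 0.16, adjusted p = 0.407), and its groups overlapped, with chow 16 and chow 17 above most norUDCA libraries.

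Creld2 and Sdf2l1 showed the largest fold changes among the chaperones. Creld2, an ER stress-inducible protein with disulfide isomerase motifs, had 13.3, 15.7, 18.0, 19.0, 21.1 and 32.6 CPM in norUDCA libraries 11, 12, 9, 20, 10 and 13, and 32.4, 36.1, 44.2, 53.0, 101 and 107 CPM in chow libraries 3, 2, 17, 8, 7 and 16. Only norUDCA 13 reached into the chow range, and only as far as chow 3. The level was 3.12-fold lower under norUDCA (log2 fold change -1.64 ± 0.31, adjusted p = 0.00287). Sdf2l1, a partner of Dnajb11 in the BiP cycle, had 13.4 to 25.7 CPM (median 14.4) under norUDCA and 25.4 to 60.2 CPM (median 40.3) on chow. Its groups met only between norUDCA 13 and chow 3 (log2 fold change -1.40 ± 0.21, adjusted p = 0.000636). Manf, a secreted factor that stabilises BiP bound to its substrates, had 35.7 to 91.8 CPM (median 59.9) under norUDCA and 96.3 to 187 CPM (median 108) on chow, with no overlap. Its log2 fold change was -0.97 ± 0.21 (adjusted p = 0.00635), with the limit that Manf shares part of its locus with Vprbp and Rbm15b, and whether the counting used strand was not stated.

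The lectin chaperones, which retain glycoproteins until they are folded, fell less. Calr had 511 to 701 CPM (median 536) under norUDCA and 710 to 935 CPM (median 822) on chow, with separate groups (log2 fold change -0.55 ± 0.09, adjusted p = 0.00134). Canx had 278 to 315 CPM (median 288) under norUDCA and 321 to 378 CPM (median 340) on chow, also separate. Its 1.18-fold lower level was the smallest change among the genes called lower (log2 fold change -0.24 ± 0.06, adjusted p = 0.0165).

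Of the protein disulfide isomerases, which form and rearrange disulfide bonds, Pdia6, Pdia3 and P4hb fell and Pdia4 was not called. Pdia6 had 182 to 218 CPM (median 189) under norUDCA and 279 to 363 CPM (median 324) on chow. The gap between its groups was wide against their spread, and it had the smallest adjusted p of the 38 genes (1.43e-05, log2 fold change -0.76 ± 0.07). Pdia3, the partner of Calr and Canx, had 305 to 386 CPM (median 328) under norUDCA and 373 to 546 CPM (median 452) on chow. Only norUDCA 13 lay above the lowest chow library, chow 3 (log2 fold change -0.46 ± 0.10, adjusted p = 0.00496). P4hb, which is also a subunit of collagen prolyl hydroxylase, had 1014 to 1247 CPM (median 1147) under norUDCA and 1293 to 1558 CPM (median 1354) on chow. The groups were separate, but the difference was small (log2 fold change -0.28 ± 0.08, adjusted p = 0.0277), and the call was lost without norUDCA 10, 11 or 12 or chow 7, 16 or 17 (adjusted p up to 0.0849). Pdia4 had 119 to 155 CPM under norUDCA and 131 to 264 CPM on chow with overlap (log2 fold change -0.36 ± 0.15, adjusted p = 0.116).

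**Figure D3:**
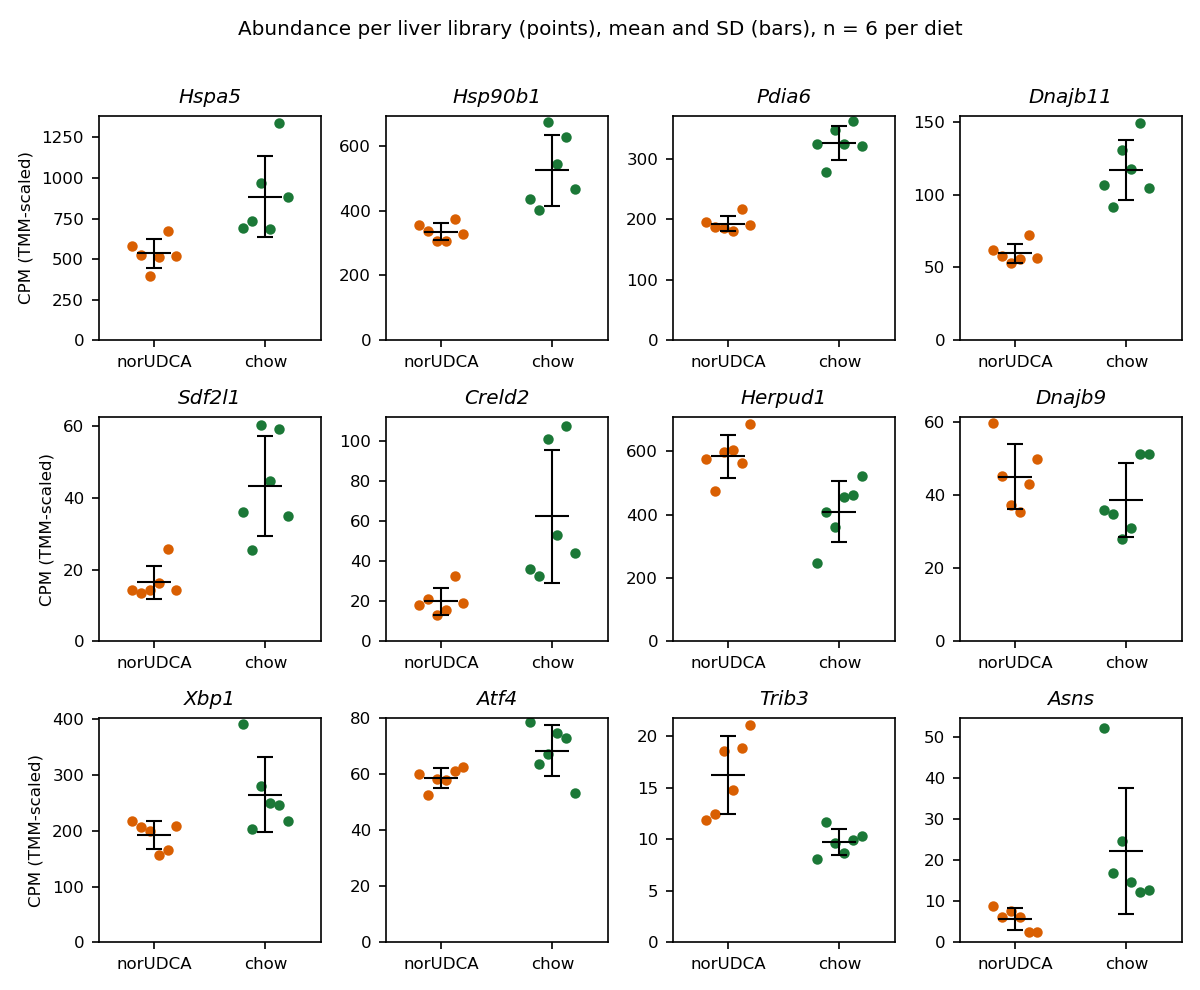
TMM-scaled CPM (y axes, from 0) of 12 genes in each of the 6 norUDCA and 6 chow libraries (points), with the mean and SD as bars. Hspa5, Hsp90b1, Pdia6, Dnajb11 and Asns are lower in every norUDCA library than in any chow library, Trib3 is higher in every norUDCA library, and Dnajb9 and Atf4 overlap between diets.

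Most chaperones ranked the libraries of a diet alike, and other groups shared part of this ranking. Chow 16 was the highest chow library for 12 of the 15 chaperones and chow 7 for the other 3, while chow 3 was the lowest for 11. It was chow 16 also for 5 of 8 degradation genes, 2 of 2 oxidases and 2 of 2 translocon subunits. For the ATF4 branch this held in 1 of 7 genes, and for the sensor group in 0 of 4. Among norUDCA libraries, norUDCA 13 was the highest for 12 chaperones and norUDCA 11 the lowest for 9. How often these libraries ranked first or last over all genes tested was not taken. The summed level of the 15 genes was 3571 to 4667 CPM under norUDCA (mean 4041 ± 367, SD, n = 6) and 4969 to 7353 CPM on chow (mean 5894 ± 890, SD, n = 6). The coefficient of variation was smaller under norUDCA than on chow in 12 of the 15 chaperones, with a median of 11.5% under norUDCA and 20.9% on chow. It was smaller in 26 of all 38 genes, and the share over all genes tested was not taken. Leaving out each library in turn gave 12 or 13 chaperones lower and a median log2 fold change between -0.78 and -0.59, and the value of -0.59 came without chow 16. The acute-phase and chaperone sums were both highest in norUDCA 13 among norUDCA libraries (8851 and 4667 CPM). NorUDCA 10 came close in its acute-phase sum (8658 CPM), but its chaperone sum of 3923 CPM was below the norUDCA mean. On chow, both sums were lowest in chow 3 (9604 and 4969 CPM) and second highest in chow 7 (27936 and 6549 CPM). Chow 2 had the highest acute-phase sum (55969 CPM) with a chaperone sum of 5281 CPM, and chow 16 had the highest chaperone sum (7353 CPM) with an acute-phase sum of 12465 CPM.

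**Figure D4:**
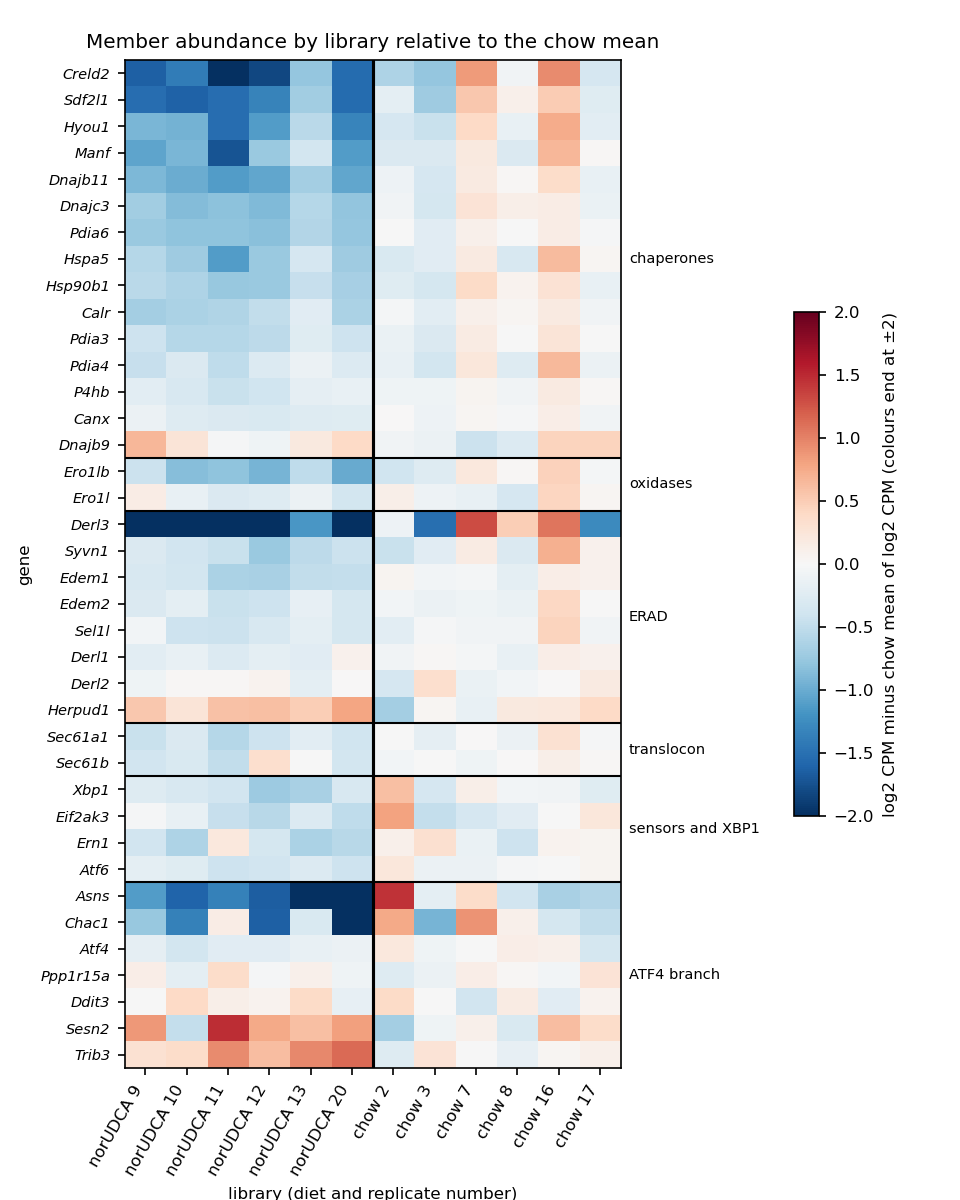
Log2 CPM of each of the 38 genes in each library minus the mean of its log2 CPM on chow (colour), with norUDCA libraries at the left, chow libraries at the right and genes grouped by role. Chaperones other than Dnajb9 are below the chow mean in the norUDCA columns and highest in the chow 16 and chow 7 columns. Of the sensor and ATF4-branch rows, Xbp1, Atf6, Eif2ak3, Atf4 and Asns are highest in the chow 2 column, and Chac1 in the chow 7 column.

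The ER oxidases pass electrons from the disulfide isomerases to oxygen. Ero1lb had 47.4 to 70.7 CPM (median 53.6) under norUDCA and 71.9 to 131 CPM (median 94.6) on chow. The highest norUDCA library lay just below the lowest chow library (log2 fold change -0.77 ± 0.14, adjusted p = 0.00251). Ero1l, the more widely expressed paralogue, had 12.2 to 17.4 CPM under norUDCA and 12.5 to 21.2 CPM on chow, which overlapped (log2 fold change -0.19 ± 0.12, adjusted p = 0.350). Per kilobase of gene length, Ero1lb averaged 13.5 CPM under norUDCA and 22.9 CPM on chow, and Ero1l 3.19 CPM under norUDCA and 3.63 CPM on chow, so Ero1lb was the more abundant oxidase in both diets.

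In ER-associated degradation, which returns misfolded proteins to the cytosol for the proteasome, 4 genes fell and Herpud1 rose. Herpud1, an adaptor of the Hrd1 ligase complex, had 475, 561, 576, 598, 602 and 686 CPM in norUDCA libraries 10, 13, 9, 11, 12 and 20, and 247, 359, 407, 454, 462 and 522 CPM in chow libraries 2, 7, 3, 8, 16 and 17. In 5 of 6 norUDCA libraries it was above the highest chow library, and chow 2 was the lowest. The level was 1.43-fold higher under norUDCA (log2 fold change 0.51 ± 0.15, adjusted p = 0.0296). This call was lost without norUDCA 11, 12 or 20 or chow 7, where the log2 fold change was 0.47 to 0.52 and the adjusted p 0.0516 to 0.0688.

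Edem1, which helps to extract misfolded glycoproteins from the folding cycle, had 144 to 181 CPM (median 161) under norUDCA and 198 to 247 CPM (median 228) on chow, with no overlap (log2 fold change -0.49 ± 0.08, adjusted p = 0.000779). Its relative Edem2 had 48.8 to 59.7 CPM (median 53.4) under norUDCA and 60.8 to 88.9 CPM (median 63.4) on chow. Those groups were also separate, by about 1 CPM, and chow 16 stood apart at the top (log2 fold change -0.32 ± 0.10, adjusted p = 0.0371). Syvn1, the Hrd1 ubiquitin ligase itself, had 46.6 to 64.0 CPM (median 57.6) under norUDCA and 57.6 to 128 CPM (median 74.7) on chow with some overlap (log2 fold change -0.52 ± 0.16, adjusted p = 0.0446). Both calls were close to the threshold. The Edem2 call was lost without norUDCA 9, 10, 11, 12 or 20 or chow 7, 16 or 17 (adjusted p up to 0.0953). The Syvn1 call was lost without any 1 norUDCA library or without chow 7, 16 or 17 (adjusted p up to 0.103), and without chow 16 the log2 fold change of Syvn1 was -0.34. Syvn1 also overlaps the end of Mrpl49.

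Derl3, a derlin of the retrotranslocation channel that is abundant in secretory cells, showed the largest fold change of the 38 genes. It was at 0.334, 0.419, 0.455, 0.514, 0.680 and 1.60 CPM in norUDCA libraries 10, 9, 12, 11, 20 and 13, and at 1.26, 1.48, 3.34, 5.05, 7.54 and 8.86 CPM in chow libraries 3, 17, 2, 8, 16 and 7. Only norUDCA 13 was above any chow library. The level was 6.74-fold lower under norUDCA (log2 fold change -2.75 ± 0.52, adjusted p = 0.00283), from as few as 5 counts in a library. Without norUDCA 13 the log2 fold change was -3.21, and without chow 7 it was -2.45. The relatives Derl1 and Derl2 were far more abundant and were not called. Derl1 had 128 to 164 CPM under norUDCA and 140 to 170 CPM on chow (log2 fold change -0.16 ± 0.07, adjusted p = 0.156). Derl2 had 94.6 to 114 CPM under norUDCA and 86.1 to 138 CPM on chow (log2 fold change -0.04 ± 0.10, adjusted p = 0.811). The Hrd1 partner Sel1l had 103 to 134 CPM under norUDCA and 120 to 191 CPM on chow and was not called (log2 fold change -0.30 ± 0.11, adjusted p = 0.0677), although it passed without chow 2 (adjusted p = 0.0429).

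Of the Sec61 translocon, through which new proteins enter the ER, the channel subunit Sec61a1 had 164 to 211 CPM (median 183) under norUDCA and 215 to 301 CPM (median 241) on chow. Its groups did not overlap (log2 fold change -0.39 ± 0.09, adjusted p = 0.00725). The small subunit Sec61b had 48.7 to 86.7 CPM under norUDCA and 64.8 to 74.3 CPM on chow. The value of norUDCA 12 was above every chow library, and the gene was not called (log2 fold change -0.17 ± 0.12, adjusted p = 0.367), though it was lower without that library (log2 fold change -0.29, adjusted p = 0.0393).

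Among the sensors, Atf6 had 79.2 to 92.6 CPM (median 84.7) under norUDCA and 97.5 to 124 CPM (median 105) on chow. No norUDCA library reached the chow range (log2 fold change -0.32 ± 0.07, adjusted p = 0.00807). Ern1, which encodes the IRE1α kinase and nuclease that splices Xbp1, had 70.2, 71.6, 74.3, 83.9, 86.1 and 127 CPM in norUDCA libraries 13, 10, 20, 9, 12 and 11, and 81.8, 99.5, 114, 115, 117 and 136 CPM in chow libraries 8, 7, 17, 16, 2 and 3. The norUDCA 11 value stood apart from the other norUDCA libraries, inside the chow range. The gene was not called (log2 fold change -0.37 ± 0.15, adjusted p = 0.106), and without norUDCA 11 the log2 fold change was -0.51 (adjusted p = 0.0120). Eif2ak3, the PERK gene, had 15.6 to 22.7 CPM (median 17.9) under norUDCA and 16.5 to 40.3 CPM (median 21.3) on chow. Its groups overlapped and chow 2 was the highest library (log2 fold change -0.39 ± 0.19, adjusted p = 0.188).

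Xbp1 encodes the transcription factor made active by IRE1, and the table gives all Xbp1 reads without separating the spliced form. It had 156, 165, 199, 206, 208 and 217 CPM in norUDCA libraries 12, 13, 11, 10, 20 and 9, and 204, 218, 246, 249, 279 and 390 CPM in chow libraries 3, 17, 16, 8, 7 and 2. Except for chow 3, every chow library was above the norUDCA range, and chow 2 was far above the rest. The level was 1.38-fold lower under norUDCA (log2 fold change -0.46 ± 0.14, adjusted p = 0.0407). The call was lost without norUDCA 10, 11, 12, 13 or 20 or chow 2, 7, 8 or 16 (log2 fold change -0.32 without chow 2, adjusted p up to 0.0890).

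Members of the ATF4 branch did not move in 1 direction. Atf4 itself had 52.4 to 62.5 CPM (median 59.2) under norUDCA and 53.4 to 78.8 CPM (median 70.0) on chow. Chow 17 lay within the norUDCA range and the other 5 chow libraries above it, and the gene was not called (log2 fold change -0.22 ± 0.09, adjusted p = 0.107), although it was without chow 17 (log2 fold change -0.28, adjusted p = 0.0233). Ddit3, which encodes the proapoptotic factor CHOP, had 3.77 to 5.55 CPM (median 4.49) under norUDCA and 3.24 to 5.51 CPM (median 4.31) on chow. The ranges were almost the same (log2 fold change 0.12 ± 0.16, adjusted p = 0.641). Ddit3 overlaps the end of Mars, a far more abundant gene.

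Trib3, a pseudokinase induced by ATF4 and CHOP that restrains them, had 11.9, 12.4, 14.8, 18.6, 18.9 and 21.2 CPM in norUDCA libraries 9, 10, 12, 11, 13 and 20, and 8.10, 8.64, 9.63, 9.91, 10.4 and 11.7 CPM in chow libraries 2, 8, 7, 16, 17 and 3. It was the only gene of the 38 in which every norUDCA library was above every chow library. The level was 1.67-fold higher (log2 fold change 0.74 ± 0.15, adjusted p = 0.00431).

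Asns encodes asparagine synthetase, a well-known ATF4 target. It had 2.41, 2.62, 6.11, 6.29, 7.51 and 8.86 CPM in norUDCA libraries 20, 13, 12, 10, 11 and 9, and 12.3, 12.8, 14.7, 16.8, 24.7 and 52.0 CPM in chow libraries 16, 17, 8, 3, 7 and 2. Every norUDCA library was below every chow library, and chow 2 stood far above the rest. The level was 3.95-fold lower (log2 fold change -1.98 ± 0.40, adjusted p = 0.00439). Leaving out chow 2 gave -1.53 (adjusted p = 0.00427). Trib3 and Asns thus changed in opposite directions, and both carried the CARE letters.

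The other ATF4-branch genes were not called. Chac1, a glutathione-degrading enzyme, had 2.78 to 12.3 CPM under norUDCA and 5.85 to 20.8 CPM on chow (log2 fold change -0.93 ± 0.38, adjusted p = 0.110), and it was lower without norUDCA 11 (log2 fold change -1.21, adjusted p = 0.0456). Sesn2, a leucine sensor that inhibits mTORC1, had 3.68 to 14.2 CPM under norUDCA and 3.17 to 7.78 CPM on chow (log2 fold change 0.72 ± 0.27, adjusted p = 0.0890), and it was higher without norUDCA 10 (log2 fold change 0.89, adjusted p = 0.0185). Ppp1r15a, the GADD34 subunit that returns eIF2α to its unphosphorylated form, had 14.4 to 21.2 CPM under norUDCA and 13.7 to 19.9 CPM on chow (log2 fold change 0.05 ± 0.11, adjusted p = 0.794). All of them overlapped between diets.

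Chaperones and the ATF4 branch also differed in how single libraries placed. For each library, the median over a group of genes was taken of the log2 CPM minus the chow mean of that gene. For the chaperones this median was -0.81 to -0.37 in norUDCA libraries and -0.29 to 0.37 in chow libraries. For the ATF4 branch it was -0.37 to 0.15 in norUDCA libraries, on both sides of 0, and -0.09 to 0.22 in chow libraries. Chow values lie around 0 in both groups because the chow mean is subtracted. NorUDCA 11 had the lowest chaperone median and the highest ATF4-branch median of the norUDCA libraries. Chow 2 had the highest ATF4-branch median of all libraries and the second lowest chaperone median on chow. The summed ATF4-branch level was 99.1 to 137 CPM under norUDCA and 115 to 180 CPM on chow, with overlap.

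Per kilobase of gene length, the 38 genes spanned a wide range of levels in both diets. P4hb was the most abundant, with 397 CPM per kilobase under norUDCA and 483 on chow. Herpud1 was the second with 299 CPM per kilobase under norUDCA, and it ranked 4 with 209 on chow. Calr had 259 CPM per kilobase under norUDCA and 378 on chow, and Hspa5 had 205 under norUDCA and 338 on chow. At the low end, Derl3 had 0.499 CPM per kilobase under norUDCA and 3.43 on chow, and Sesn2 had 2.51 under norUDCA and 1.53 on chow.

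Further genes of the same pathways were counted by lists. Of 34 other tested ER folding genes, 10 were lower and 1 higher, with a median log2 fold change of -0.17. The folding sensor Uggt1 (log2 fold change -0.52 ± 0.08, adjusted p = 0.000918), the prolyl isomerase Fkbp11 (-0.93 ± 0.15, adjusted p = 0.00102), the sulfhydryl oxidase Qsox1 (-0.69 ± 0.12, adjusted p = 0.00188) and the glucosidase II subunit Ganab (-0.33 ± 0.07, adjusted p = 0.00519) were those with the smallest p. Of 34 tested genes of translocation and N-glycosylation, 9 were lower (median -0.21). They included the signal recognition particle receptor Srpr (log2 fold change -0.55 ± 0.08, adjusted p = 0.0006) and the signal peptidase subunit Sec11c (-0.47 ± 0.07, adjusted p = 0.000754). Of 14 ER calcium genes 4 were lower, with the calcium pump Atp2a2 at 205 ± 20.9 CPM under norUDCA and 373 ± 41.2 CPM on chow (SD, n = 6 each, adjusted p = 2.66e-05). These shares stand above the 8.62% of all genes that were lower.

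A smaller share was lower in the following lists, at 10%, 15.4% and 13.3% in the order given. The first of these was near the 8.62% of all genes, and the others were above it. Of 30 other degradation genes 3 were lower and 2 higher, with the substrate lectin Os9 among the lower (log2 fold change -0.36 ± 0.06, adjusted p = 0.00144) and the ubiquitin ligase Rnf139 among the higher (0.38 ± 0.08, adjusted p = 0.0072). Of 26 genes of ER exit and retrieval 4 were lower and 1 higher, and the cargo receptor Lman2 was among the lower (-0.31 ± 0.07, adjusted p = 0.0084). Of 15 other genes of unfolded protein response signalling 2 were lower, the Atf6 relative Atf6b (-0.45 ± 0.11, adjusted p = 0.0151) and the membrane-bound factor Creb3l2 (-0.67 ± 0.19, adjusted p = 0.0295).

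Around ATF4, 9 of 38 further target genes were lower (23.7%, against 8.62% of all genes) and 2 higher, with a median log2 fold change of -0.28. The transcription factor Atf5 (log2 fold change -0.56 ± 0.08, adjusted p = 0.000266) and the alanine and methionine tRNA synthetases Aars (-0.46 ± 0.07, adjusted p = 0.000661) and Mars (-0.38 ± 0.06, adjusted p = 0.00118) were lower. The amino acid transporter subunit Slc3a2 was higher (0.45 ± 0.06, adjusted p = 0.000284). Of 14 genes for eIF2 and its kinases, phosphatase and exchange factor, 3 were lower (21.4%) and 1 higher. The higher gene was Impact, an inhibitor of the amino acid sensor GCN2 (log2 fold change 0.77 ± 0.14, adjusted p = 0.00261). Outside the ER, 6 of 25 cytosolic and mitochondrial heat shock genes were lower (24%), including Hsph1 (-0.94 ± 0.15, adjusted p = 0.000687) and Hsp90aa1 (-0.71 ± 0.15, adjusted p = 0.00542).

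**Figure D5:**
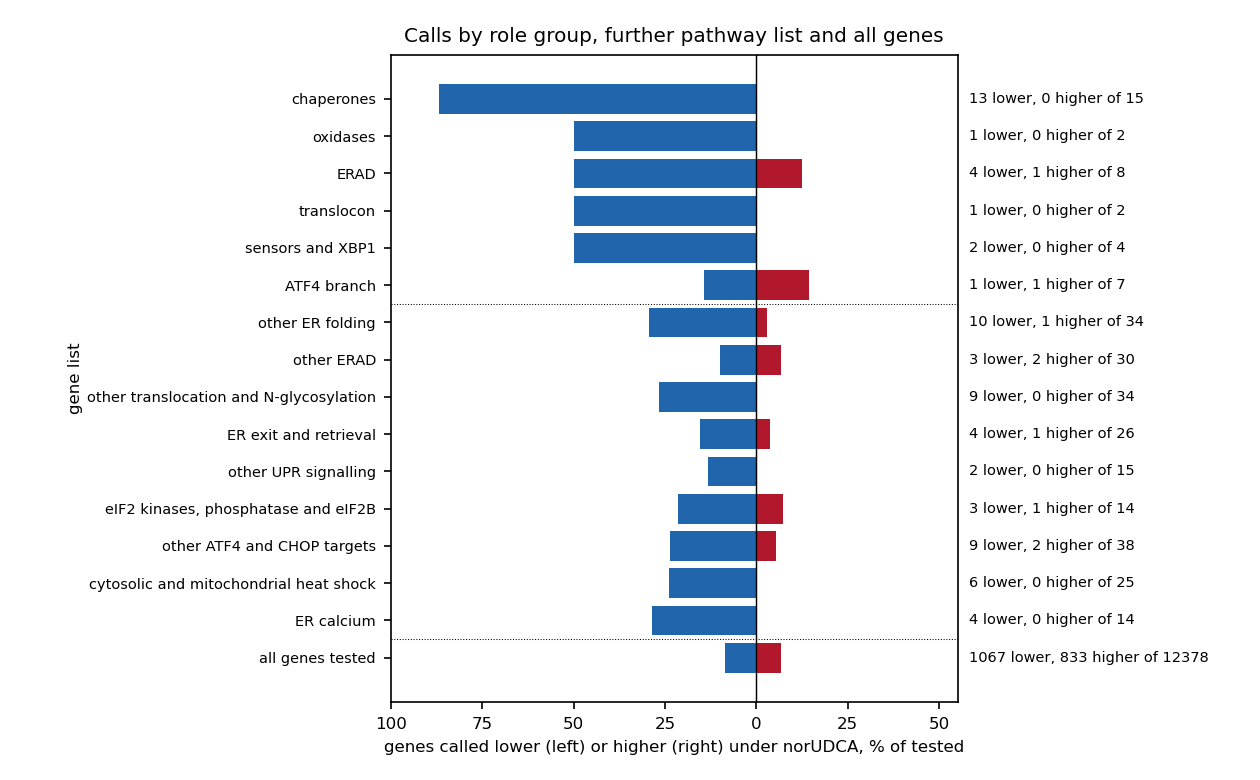
Percentage of tested genes called lower (left of 0) and higher (right of 0) under norUDCA against chow for the 6 role groups, for 9 further pathway lists and, in the bottom row, for all 12378 genes, with the counts at the right. The chaperones show 13 of 15 lower, compared with 8.62% lower among all genes.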

How the data were processed

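The authors deposited a table of raw read counts per gene for 12 liver libraries. CASAVA, STAR and DESeq2 are named in the submitters' processing notes, whereas neither the genome build nor the strand setting was stated. Further deposited tables hold the authors' comparison statistics (fold changes and p values), and these and 48 other per-sample columns were not used. Gene symbols turned into dates were restored from gene IDs (27). Counts were filtered, TMM-scaled and tested over 12378 genes with edgeR 4.0.16 (quasi-likelihood, 2 groups of 6, Benjamini-Hochberg, R 4.3.3) after the steps were tested on simulated data. DESeq2 1.42.0 and limma 3.58.1 served as alternatives, together with other scalings, no filter, thinned libraries and each library left out. CPM values are TMM-scaled. The SE was derived as the size of the fit's unshrunk log2 coefficient divided by the square root of its F statistic. The log2 fold change printed beside it is the one edgeR reports, which is a separate estimate from the same fit. All called genes and 10 sensors, chaperones and targets fixed by name were given per library or as the lowest, median and highest library, and the others by range. The members and lists were chosen with earlier results of these data known. Promoters were matched to RefSeq (GRCm38.p6) by gene ID, or by symbol or synonym where no ID was linked.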

Additional observations from a re-analysis of the deposited data

Results flagged for a closer look

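In 10 of the 76 sets of 6 libraries examined (38 genes in 2 diets), 1 library lay far from the other 5 by Dixon's criterion. Independent sets of normally distributed values meet it in about 1 of 20 cases. The 76 sets share the same 12 libraries and were examined as CPM without logarithms. That rate therefore cannot tell whether 10 is more than chance would give. On norUDCA, Pdia6 (218 CPM), Sdf2l1 (25.7 CPM) and Derl3 (1.60 CPM) were set apart by norUDCA 13, all on the high side. Canx was high in norUDCA 9 (315 CPM), Derl1 in norUDCA 20 (164 CPM) and Ern1 in norUDCA 11 (127 CPM). On chow, Edem2 (88.9 CPM), Sel1l (191 CPM) and Sec61a1 (301 CPM) were high in chow 16, and Asns was high in chow 2 (52.0 CPM).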

How the results depend on the processing

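Over 19 alternatives, 16 of the 24 called genes kept their call in all of them, 8 lost it in at least 1, and none changed sign. The number of genes lower was 22 with DESeq2, its size factors or thinned libraries, 21 with limma-voom, 20 with upper quartile scaling and 17 without a filter. Scaling by library totals shifted the median of all genes to 0.15 on the log2 scale and gave 15 genes lower and 3 higher, and all genes then split into 2434 higher and 565 lower (81.2% of calls higher) against 833 and 1067 with TMM. The chaperone median was then -0.58, with 11 of 15 lower. The calls lost there were Canx, P4hb, Edem2, Syvn1, Sec61a1, Xbp1 and Atf6 (adjusted p 0.0604 to 0.294), and Sesn2 was gained. Leaving out each library gave 18 to 22 genes lower and 1 to 3 higher. The count of 1 higher arose without norUDCA 11, 12 or 20 or chow 7, when Herpud1 was not called. Among all genes, leaving out each library gave 622 to 899 higher and 773 to 1083 lower. Log2 fold changes near 0 in genes that were not called changed sign, in Derl2 with library totals (0.10) and without norUDCA 13 or chow 3 (-0.10 to 0.031 over the libraries left out), and in Ppp1r15a without norUDCA 11 (-0.0040 to 0.12). TMM factors were 1.02 to 1.07 in norUDCA libraries and 0.916 to 0.974 in chow libraries, and scaling by library totals omits them. Why the factors separated by diet was not tested, nor was the cause of the sign changes. No paired analysis was possible because the diets share no library number. Depth limits Derl3 most, with 5 counts in its lowest library, followed by Ddit3 and Sesn2 with 38 and Asns with 39.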
